A study of Oryctolagus cuniculus with 6 samples.

Results

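Antiviral interferon-stimulated genes were followed here in rabbit tracheal mucosa after injury by an over-inflated tube cuff. The members were taken by symbol: ISG15, MX1, MX2, IFIT2, IFIT3, OAS1, OAS2, OAS3, OASL and RSAD2. All 10 have a row among the 29587 genes of the deposited table, and all 10 passed the filter on low counts, which 13724 genes passed. Of the 10, 9 had a higher fitted level with high cuff pressure than in the controls, which 49.5% of tested genes had, but 0 passed the test in either direction (adjusted p under 0.05, passed by 5.28% of tested genes). What moved most was ISG15, which was 10.3-fold and 7.36-fold above the control mean in 2 injured libraries and 1.31-fold above it in the other. For these folds the control mean was taken over log2 levels.

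The study used New Zealand rabbits labelled 3 months old. In the high cuff pressure group a tube of 3.0 mm was placed 13 cm deep and its cuff held at 35 cmH2O for 2 h; the labels do not say how the control rabbits were handled. No group carries a mutation or a drug in the labels, and all libraries are labelled as a single batch. PolyA RNA from 3 high cuff pressure samples (H1, H2 and H3 below) and 3 control samples (C1, C2 and C3) was sequenced to between 10501734 and 14415754 counts per library. C3 is titled S4 in the labels, and nothing says whether same-numbered samples belong together or that samples are separate animals, so p-values measure only the spread between these libraries.

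The cell type in the labels is epithelial, while the protocol names tracheal mucosa, and the libraries hold markers of several tissues. Summed levels of airway epithelium markers were 2230 to 4760 CPM (reads of a gene per 1e6 library reads, the library size being scaled by TMM factors), those of fibroblast markers 316 to 2470 CPM and those of smooth muscle markers 465 to 8920 CPM. H1 stood apart from the other injured libraries. It had the lowest fibroblast and smooth muscle sums and the highest neutrophil sum, and its log2 CPM correlated at 0.911 with H2, 0.899 with H3 and 0.881 to 0.897 with the controls. H2 and H3 correlated at 0.929, while the controls correlated with each other at 0.949 to 0.960. The antiviral and pathway genes below whose call changed without H1 are given both ways.

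Interferons are secreted when a cell's sensors meet foreign or misplaced nucleic acid. Type I and type III interferons bind their receptors on the same or neighbouring cells, and JAK kinases then activate transcription factors that switch on interferon-stimulated genes. The proteins made act on different steps of a viral infection, and the airway lining is one of the tissues where this defence is best known. Several of these genes can also be switched on directly by interferon regulatory factors such as IRF3 and IRF7.

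ISG15 (ENSOCUG00000027981, scaffold GL019631, 9664 to 22130, minus strand) encodes a ubiquitin-like protein that is attached to other proteins and is also secreted. It stood at 7.79 CPM in H1, 62.4 CPM in H2 and 44.5 CPM in H3, against 7.61 CPM in C1, 3.80 CPM in C2 and 7.07 CPM in C3. H2 and H3 lay far above every control, while H1 lay just above the highest control, so the groups did not overlap. H1 had 79 counts against 89 in C1 and 97 in C3, so it lay above C1 and C3 only after TMM scaling. The group means were 38.2 ± 27.8 CPM (SD, n = 3) and 6.16 ± 2.06 CPM (SD, n = 3). The fitted log2 fold change was 2.63 with a standard error of 0.69, a 6.21-fold higher level, and the adjusted p of edgeR's quasi-likelihood test was 0.064. Without H1 the log2 fold change was 3.12 and the adjusted p 0.0074. In these bulk samples a change in the number of cells of a type and a change in RNA per cell cannot be told apart, here or for any gene below.

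**Figure D1:**
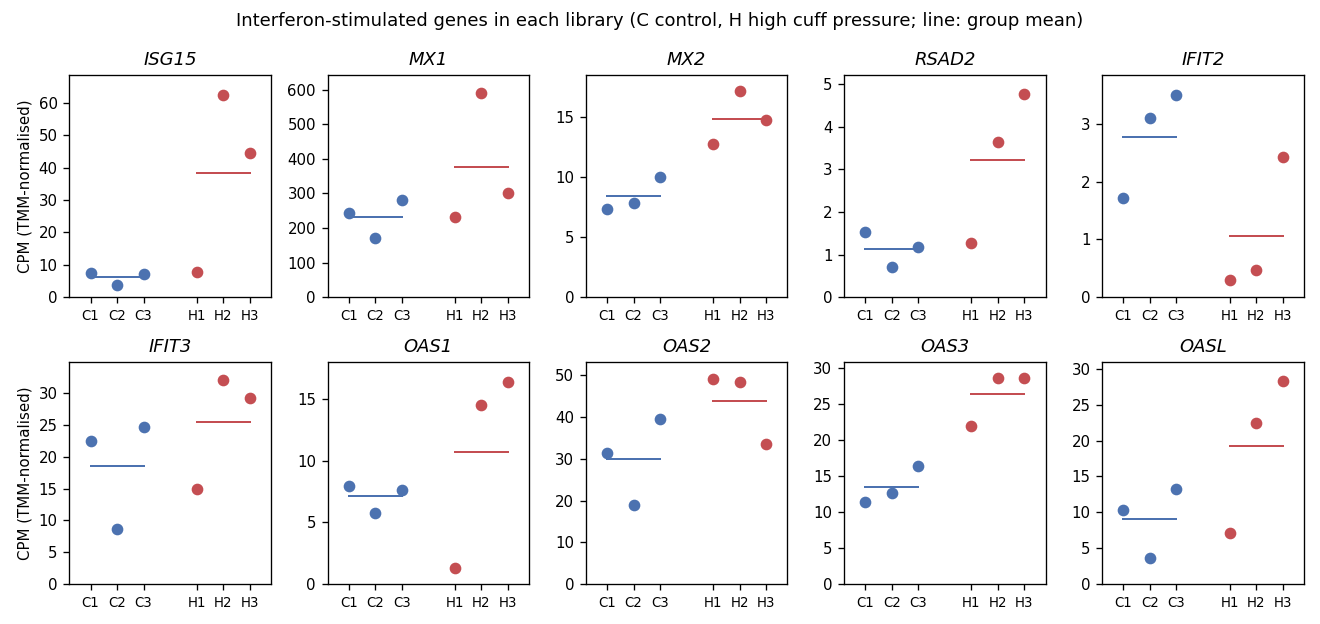
Level of each antiviral gene in every library in CPM (vertical axis, linear, from 0, its own scale for each gene), with H1 to H3 from the high cuff pressure group and C1 to C3 from the control group; points are libraries and lines are group means. ISG15 at 62.4 CPM in H2 and 44.5 CPM in H3 stands clear of every control, whereas H1 at 7.79 CPM lies beside them.

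MX1 and MX2 encode dynamin-like GTPases that block incoming viral particles. MX1 (ENSOCUG00000021924, scaffold GL019053, 98855 to 212498) stood at 233 CPM in H1, 591 CPM in H2 and 302 CPM in H3, against 243, 172 and 280 CPM in C1, C2 and C3. H1 lay inside the control range and H3 only a little above it, so the groups overlapped and H2 alone was far from the rest. The MX1 log2 fold change was 0.70 with a standard error of 0.38 (edgeR adjusted p = 0.26).

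MX2 (ENSOCUG00000021037, scaffold GL019053, 1239 to 9408) lies on the same scaffold. Its level was 12.7, 17.1 and 14.7 CPM in H1, H2 and H3, and 7.35, 7.79 and 9.99 CPM in C1, C2 and C3. All injured libraries, H1 included, were above all controls. The group means of MX2 were 14.8 ± 2.18 CPM and 8.37 ± 1.41 CPM (SD, n = 3 each), and its log2 fold change was 0.82 with a standard error of 0.28 (edgeR adjusted p = 0.10). MX1 is the less certain of the pair, since its row also spans TMPRSS2 on the opposite strand, with 14774 counts over the 6 libraries, and no source used here says whether reads were assigned by strand.

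RSAD2 (ENSOCUG00000012157, scaffold GL018721, 3370545 to 3384058) encodes viperin, an enzyme that makes a chain-terminating nucleotide. It stood at 1.28, 3.65 and 4.77 CPM in H1, H2 and H3. The controls were at 1.54, 0.708 and 1.17 CPM. H2 and H3 lay above all controls and H1 lay between C3 and C1. The RSAD2 log2 fold change was 1.52 with a standard error of 0.57 (edgeR adjusted p = 0.13), and without H1 it was 1.90 (adjusted p = 0.036).

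IFIT2 and IFIT3 encode tetratricopeptide proteins that act together on viral RNA. Their rows lie 7136 bp apart on chromosome 18, at 37228300 to 37233847 for IFIT2 (ENSOCUG00000024939) and 37240984 to 37246056 for IFIT3 (ENSOCUG00000032132). IFIT2 rested on few reads, with 3 counts in H1, 4 in H2 and 32 in H3, against 20, 48 and 48 in C1, C2 and C3. In CPM this was 0.296, 0.471 and 2.42 against 1.71, 3.09 and 3.50. IFIT2 was the only member with a negative fold change: H1 and H2 were below every control and H3 was among them. Its log2 fold change was -1.32 with a standard error of 0.74 (edgeR adjusted p = 0.27). Without H3 it was -2.84 (adjusted p = 0.063), without H1 -0.88 (adjusted p = 0.39) and without H2 -0.98 (adjusted p = 0.51).

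IFIT3, the neighbouring gene, did not show the same pattern of values. It stood at 15.0, 32.1 and 29.2 CPM in H1, H2 and H3 and at 22.5, 8.62 and 24.6 CPM in C1, C2 and C3. H1 lay between C2 and C1, and H2 and H3 lay above the controls. The IFIT3 log2 fold change was 0.46 with a standard error of 0.45 (edgeR adjusted p = 0.52). The difference between the IFIT2 and IFIT3 changes was not tested.

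The OAS family senses double-stranded RNA and, apart from OASL, makes short oligoadenylates that act as an antiviral signal inside the cell. OAS1, OAS3 and OAS2 lie side by side on chromosome 21. OAS1 (ENSOCUG00000034782, 8711575 to 8717095) stood at 1.28 CPM in H1 against 14.5 in H2 and 16.4 in H3, with controls at 7.95, 5.79 and 7.58 CPM. The injured libraries therefore lay on both sides of the controls: H1, with 13 counts, was below all of them, and H2 and H3 were above all of them. The OAS1 log2 fold change was 0.59 with a standard error of 0.73 (edgeR adjusted p = 0.62). Without H1 it was 1.12 (adjusted p = 0.040), and with limma-voom on all libraries it was -0.02, so for OAS1 the call depends on H1 and the direction on the tool.

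OAS3 (ENSOCUG00000027849, 8722667 to 8743763) differed from OAS1 in that H1 went with the other injured libraries. It stood at 22.0, 28.6 and 28.6 CPM in H1, H2 and H3 and at 11.4, 12.6 and 16.4 CPM in C1, C2 and C3, with no overlap of the groups. The group means of OAS3 were 26.4 ± 3.83 CPM and 13.5 ± 2.62 CPM (SD, n = 3 each). The OAS3 log2 fold change was 0.97 with a standard error of 0.26, a 1.96-fold higher level, and the edgeR adjusted p was 0.065, or 0.034 without H1.

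OAS2 (ENSOCUG00000015823, 8749853 to 8878847) stood at 49.2, 48.4 and 33.5 CPM in H1, H2 and H3 and at 31.3, 19.0 and 39.6 CPM in C1, C2 and C3. Here H3 lay inside the control range while H1 was the highest library, the reverse of the order seen for OAS1. The OAS2 log2 fold change was 0.54 with a standard error of 0.32 (edgeR adjusted p = 0.29). Its row overlaps RASAL1, DDX54 and RITA1, with 1199, 4547 and 2579 counts over the 6 libraries, so its level is uncertain.

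OASL (ENSOCUG00000029328, scaffold GL018777, 1158356 to 1172159) encodes a family member without enzyme activity that enhances RIG-I signalling. It stood at 7.10, 22.4 and 28.3 CPM in H1, H2 and H3 and at 10.3, 3.67 and 13.3 CPM in C1, C2 and C3. H1 lay between the controls, and H2 and H3 lay above them. The OASL log2 fold change was 1.08 with a standard error of 0.60 (edgeR adjusted p = 0.27).

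Across all genes tested, edgeR called 5.28% at an adjusted p under 0.05, 503 higher (3.67%) and 222 lower (1.62%) with high cuff pressure, beside 0 of the 10 antiviral genes. At an unadjusted p under 0.05 the count was 4 of 10 (ISG15, MX2, OAS3 and RSAD2), where 29.3% of all tested genes passed. DESeq2 called 2 of the 10 higher (ISG15 and OAS3), where it called 9.27% of all genes higher, and limma-voom called 0. Without H1, edgeR called 4 of the 10 higher (ISG15, OAS1, OAS3 and RSAD2), where 9.68% of all genes were called higher. The calls over all genes depended heavily on single libraries: 1362 higher and 1261 lower without H1, 3 and 1 without H2, 244 and 58 without H3, 68 and 8 without C1, and 0 and 0 without C2 or without C3.

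The groups did not overlap, with all injured libraries above all controls, for 3 of the 10 (ISG15, MX2 and OAS3), against 18.6% of all tested genes. No member had all injured libraries below all controls, which 18.7% of tested genes did. The median log2 fold change of the 10 genes was 0.76, and that of all tested genes was -0.01. Scaling by total counts alone moved the median of all tested genes to -0.40 and that of the 10 antiviral genes to 0.34, and the sign of each of the 10 stayed the same. The 3 separations held only with TMM factors. By the authors' FPKM, which are scaled by total counts, 0 of the 10 were apart, where 8.95% of tested genes were apart above and 33.0% below.

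The 3 injured libraries differed in how far the genes lay from the controls. In H1 the median log2 difference from the control mean over the 10 genes was 0.12, with 4 genes above all controls (31.8% of all tested genes) and 2 below all controls (35.3%). In H2 the median was 1.06, with 9 genes above all controls (39.8% of all tested genes) and 1 below (41.1%). In H3 the median was 0.95, with 8 above (38.3%) and 0 below (37.2%). H2 and H3 thus lay mostly above the controls, while in H1 genes lay on both sides of them.

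The number of genes at least 2-fold from the control mean in either direction was 2 in H1, 8 in H2 and 5 in H3, where 17.7%, 36.3% and 26.9% of all tested genes were as far. Both such genes in H1, IFIT2 and OAS1, lay below the control mean, at log2 differences of -2.61 and -2.32. In H2 IFIT2 lay below the control mean, at -2.15, and the other 7 above it, up to 3.37 for ISG15. All 5 in H3 lay above it. The controls varied too: C2 lay below the control mean for 9 of the 10 genes, by as much as -1.09 for OASL.

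**Figure D2:**
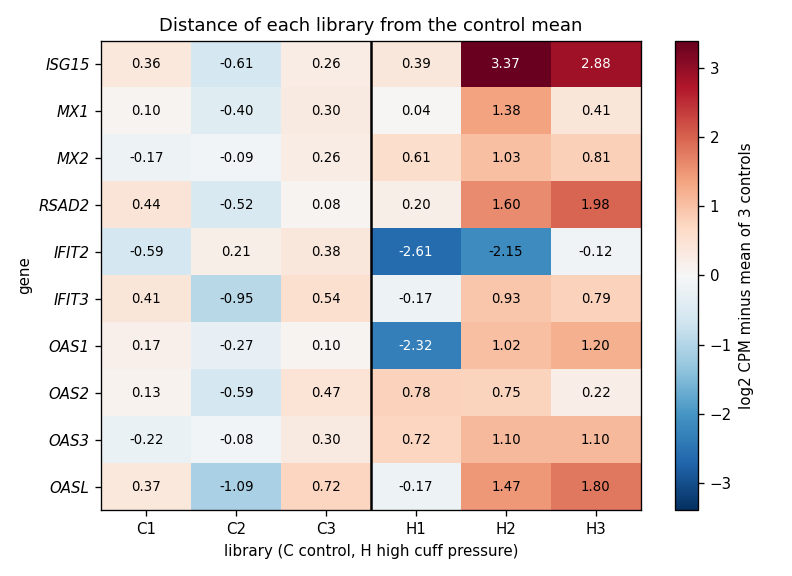
Log2 difference of each gene (rows) in each library (columns, H1 to H3 high cuff pressure and C1 to C3 control) from the mean log2 CPM of the 3 controls, as colour and printed value. H2 and H3 are above the control mean for 9 of 10 genes each, H1 for 6, and IFIT2 is below it in every injured library.

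Levels were set against each other per length of the gene, in the authors' FPKM. In the controls MX1 was the most abundant at a mean of 68.4 FPKM (range 53.8 to 86.8), followed by OAS2 at 16.2, IFIT3 at 9.80, OAS1 at 7.55, OAS3 at 4.63, MX2 at 3.76, OASL at 3.68, ISG15 at 3.14, IFIT2 at 2.15 and RSAD2 at 1.08 FPKM. Of the 9 neighbouring pairs in this order only MX1 and OAS2, and OAS1 and OAS3, had control ranges that did not overlap. The other 7 pairs had overlapping ranges. Among these, OAS2 lay above IFIT3, and OAS3 above MX2, within each control library. The rest of the overlapping pairs changed order from control to control. In the high cuff pressure group ISG15 ranked after MX1 and OAS2 by its mean, at 14.7 FPKM with a range of 3.13 to 22.7, where MX1 had 82.8 and OAS2 17.9 FPKM. FPKM are scaled by total counts, and on this scale the groups overlapped for all 10 genes, while 8.95% of all tested genes had every injured library above every control and 33.0% every one below. For ISG15 the H1 value of 3.13 FPKM lay below C1 at 3.52 and C3 at 3.82 FPKM.

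Upstream of these genes, interferon transcripts themselves were at or near the limit of counting. IFNB1, IFNK and IFNL1 had 0 counts in all 6 libraries, which allows up to 3 counts, or 0.193 to 0.353 CPM, in a single library. IFNG, the type II interferon, had 1 count in H2 and 3 counts in C1. IFNE, an interferon of epithelia, had 1 count in H1 and 1, 3 and 8 counts in C1, C2 and C3. Of 11 ligand genes sought, 5 have a row and 0 reached the filter, so no ligand was tested.

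The genes that carry the signal were described from lists of receptors, signal transducers, sensors, other interferon-stimulated genes, interferon gamma targets and feedback inhibitors. With the ligands these lists hold 144 genes, of which 88 have a row and 81 were tested. Among them 2 rose with high cuff pressure, MYD88 and NLRX1, and 0 fell, and 19 had an unadjusted p under 0.05. Without H1 edgeR called 9 higher and 6 lower, and leaving out any other single library gave 0 and 0. DESeq2 called 9 higher and 5 lower, limma-voom 2 and 0. Fold changes were positive for 48 and negative for 33. Beside these counts, and those of each list below, stand the shares of all tested genes. With edgeR 3.67% were higher, 1.62% lower and 29.3% at an unadjusted p under 0.05. DESeq2 called 9.27% higher and 1163 of 15044 lower. Without H1, edgeR called 9.68% higher and 1261 of 14064 lower. Limma-voom called 520 higher and 303 lower of 13724. In the main fit 49.5% had a positive fold change.

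All 5 measured receptor genes were tested and 0 passed, with 0 at an unadjusted p under 0.05 and 0 by DESeq2 or limma-voom. IFNAR1, a chain of the type I receptor, had a log2 fold change of 0.34 with a standard error of 0.27 (edgeR adjusted p = 0.43). IFNLR1, the chain that gives epithelia their response to type III interferons, had one of 0.61 with a standard error of 0.31 (adjusted p = 0.24). The list ran from -0.06 to 0.61 with a median of 0.09.

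Of the 10 signal transducers tested, 0 passed edgeR's test, 4 had an unadjusted p under 0.05, DESeq2 called 3 higher and 1 lower, limma-voom called 0, and edgeR without H1 called 2 higher and 1 lower. STAT2 and IRF9 have no row by symbol. IRF1 had a log2 fold change of 0.08 with a standard error of 0.22 (edgeR adjusted p = 0.83), and its direction turned without H1 (-0.06) and without C2 (-0.02). IRF7, the factor that amplifies type I interferon and is induced by it, stood at 33.9, 103 and 55.2 CPM in H1, H2 and H3 and at 30.6, 12.9 and 31.9 CPM in C1, C2 and C3. As with ISG15, H1 was just above the controls and H2 was the highest. The IRF7 log2 fold change was 1.35 with a standard error of 0.48 (edgeR adjusted p = 0.12), or 1.66 without H1 (adjusted p = 0.043). IRF3, IRF5 and IRF2 had the smallest p of the list, with log2 fold changes of 1.57, 0.88 and -0.84 and edgeR adjusted p of 0.090, 0.068 and 0.087. Without H1, IRF5 (0.95, adjusted p = 0.044) and IRF2 (-1.08, adjusted p = 0.027) passed and IRF3 (1.69, adjusted p = 0.069) did not.

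Of 9 nucleic acid sensors and adaptors tested, 1 rose, 0 fell and 7 had an unadjusted p under 0.05, with the sensors on both sides of 0. DESeq2 called 2 higher and 3 lower, limma-voom 1 and 0, and edgeR without H1 2 and 2. MYD88, the adaptor of most Toll-like receptors and of the interleukin-1 receptor, stood at 40.2, 48.1 and 50.6 CPM in H1, H2 and H3 and at 23.0, 24.8 and 24.9 CPM in C1, C2 and C3. Its log2 fold change was 0.93 with a standard error of 0.21 (edgeR adjusted p = 0.048). The MYD88 call was lost when any of H2, H3, C1, C2 or C3 was left out, at adjusted p of 0.10, 0.090, 0.12, 0.17 and 0.20. TMEM173, which encodes STING, the adaptor of the cytosolic DNA pathway, had a log2 fold change of 1.42 with a standard error of 0.39 (edgeR adjusted p = 0.067). It passed with DESeq2 (adjusted p = 0.015).

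TLR3, the endosomal receptor for double-stranded RNA, stood at 13.1, 5.41 and 9.39 CPM in H1, H2 and H3 and at 25.3, 18.0 and 39.2 CPM in C1, C2 and C3. All injured libraries were below all controls, with a log2 fold change of -1.56 and a standard error of 0.42 (edgeR adjusted p = 0.065). TLR3 passed without H1 (-1.88, adjusted p = 0.033), with DESeq2 (adjusted p = 0.0061) and with scaling by total counts (adjusted p = 0.037). On the total count scale the lower calls over all genes went from 222 to 1241. TLR3 did not pass edgeR's test with a replicate block (adjusted p = 0.093). Nor did it pass without H2, H3, C1, C2 or C3, at adjusted p of 0.15, 0.12, 0.13, 0.13 and 0.24. IFIH1 encodes MDA5, a cytosolic RNA sensor that is itself interferon-stimulated. It had 17.7, 12.9 and 9.77 CPM in H1, H2 and H3 and 24.2, 24.4 and 40.2 CPM in C1, C2 and C3, a log2 fold change of -1.13 with a standard error of 0.33 (edgeR adjusted p = 0.078). It passed without H1 (-1.38, adjusted p = 0.036), with DESeq2 (adjusted p = 0.019) and with scaling by total counts (adjusted p = 0.037). IFIH1 did not pass edgeR's test without H2, H3, C1, C2 or C3, at adjusted p of 0.18, 0.15, 0.13, 0.18 and 0.28. DHX58, which encodes the related helicase LGP2, had a log2 fold change of 1.01 with a standard error of 0.38 (adjusted p = 0.13), or 1.26 without H1 (adjusted p = 0.049). IFIH1 and DHX58 were picked out after their values were seen, as were SAMD9, IFI44, IFI44L and CXCL10 below.

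Of 34 other interferon-stimulated genes tested, 0 passed edgeR's test, 5 had an unadjusted p under 0.05, DESeq2 called 2 higher and 1 lower, limma-voom called 0, and edgeR without H1 called 3 higher and 3 lower. Their median log2 fold change was 0.06, with 19 positive and 15 negative, and the groups were apart for 3 above and 3 below the controls. Of all tested genes 18.6% were apart above and 18.7% below, and 29.3% had an unadjusted p under 0.05. SAMHD1, which depletes nucleotides, had a log2 fold change of 0.86 (edgeR adjusted p = 0.067, or 0.044 without H1), and IFI35 one of 1.13 (adjusted p = 0.11). On the other side were SAMD9 at -1.44 (adjusted p = 0.11; without H1 -2.11, adjusted p = 0.022), IFI44 at -0.71 (adjusted p = 0.26) and IFI44L at -0.73 (adjusted p = 0.24). Of the 34, H1, H2 and H3 had 8, 14 and 11 above all controls and 6, 11 and 12 below all controls. The shares of all tested genes were 31.8%, 39.8% and 38.3% above and 35.3%, 41.1% and 37.2% below.

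**Figure D3:**
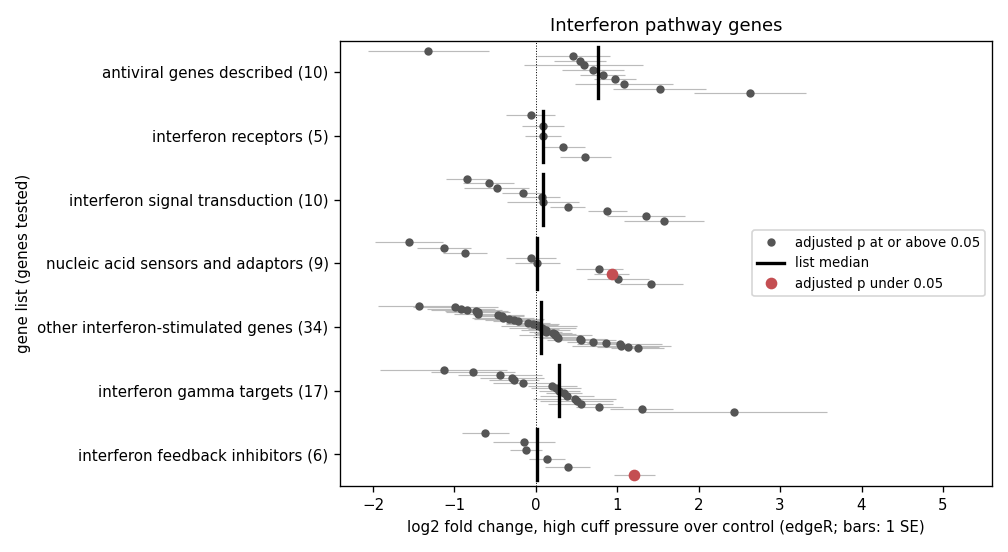
Log2 fold change of high cuff pressure over control (horizontal axis, edgeR) for each tested gene of the antiviral set and of 6 pathway lists; points are genes, grey bars are 1 standard error, black bars are list medians and red points passed an adjusted p under 0.05. The median is 0.76 for the 10 antiviral genes and between 0.01 and 0.29 for the other lists, where MYD88 and NLRX1 are the red points.

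Targets induced mainly by interferon gamma were tested for 17 genes, of which 0 passed edgeR's test, 2 had an unadjusted p under 0.05, DESeq2 called 1 higher, limma-voom called 0 and edgeR without H1 called 1 higher. WARS, the tryptophan tRNA synthetase, stood at 977, 484 and 387 CPM in H1, H2 and H3 and at 239, 209 and 302 CPM in C1, C2 and C3. Here H1 was the highest library, unlike for ISG15, and the log2 fold change was 1.30 with a standard error of 0.39 (edgeR adjusted p = 0.080). IDO1, which breaks down tryptophan, had 51.4, 18.7 and 1.89 CPM against 4.96, 0.579 and 7.73 CPM, with overlapping groups and a log2 fold change of 2.44 with a standard error of 1.14 (adjusted p = 0.20), or 1.21 without H1 (adjusted p = 0.45). PSME2, a proteasome activator subunit, had a log2 fold change of 0.78 (adjusted p = 0.13), or 0.97 without H1 (adjusted p = 0.049), and CXCL10, a chemokine used as a reporter of interferon exposure, one of -0.44 with a standard error of 0.52 (adjusted p = 0.60).

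Among 6 feedback inhibitors tested, 1 rose and 0 fell. NLRX1, a mitochondrial protein that restrains antiviral signalling, stood at 27.1, 39.7 and 29.3 CPM in H1, H2 and H3 and at 15.5, 13.3 and 12.7 CPM in C1, C2 and C3. Its log2 fold change was 1.21 with a standard error of 0.25 (edgeR adjusted p = 0.041). The call was lost without H2, H3, C1, C2 or C3, at adjusted p of 0.10, 0.063, 0.091, 0.16 and 0.19. PIAS1, an inhibitor of interferon signalling, had a log2 fold change of -0.62 with a standard error of 0.29 (adjusted p = 0.19). USP18, which removes ISG15 from proteins, and SOCS1 and SOCS3 have no row by symbol.

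Markers of other cell types moved between the same libraries. Summed neutrophil markers were 6880, 3650 and 1520 CPM in H1, H2 and H3 and 185, 10.7 and 438 CPM in C1, C2 and C3, with 8 of 11 tested markers higher and MMP8 at 0 counts in every library. That count was 8 without H1, 0 without H2, 9 without H3, 3 without C1, 0 without C2 and 0 without C3. The order of the injured libraries differed between the sets: H1 had the most neutrophil transcripts, while ISG15 in H1 was beside the controls. Summed monocyte and macrophage markers were 236 to 424 CPM in the injured libraries and 125 to 251 CPM in the controls, with 4 of 14 higher, and that count was 5 without H1, 2 without H3 and 0 without any other single library.

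The markers listed for plasmacytoid dendritic cells, the main producers of type I interferon, include IRF7. They summed to 71.7, 121 and 84.1 CPM against 71.5, 75.1 and 82.2 CPM. Without IRF7 the sums were 37.8, 17.8 and 28.9 CPM against 40.9, 62.2 and 50.4 CPM, every injured library below every control, and the list had 4 negative fold changes of 5 with a median of -0.63. Of its 5 tested genes 0 passed edgeR's test, 2 had an unadjusted p under 0.05, DESeq2 called 1 higher and limma-voom 0. CLEC4C, LILRA4 and GZMB of this list have no row, and the sums cannot show a change in the number of these cells. Airway epithelium markers summed to 2790, 4540 and 4760 CPM in H1, H2 and H3 and to 3040, 2230 and 2810 CPM in C1, C2 and C3, with 0 of 10 passing edgeR's test, 3 with an unadjusted p under 0.05, DESeq2 calling 3 higher and limma-voom 0. H2 and H3 had the highest epithelial sums, and also the highest endothelial sums (given below) and the highest ISG15. Of the 10 epithelial fold changes 6 were positive and 4 negative. Smooth muscle markers summed to 465, 3930 and 6890 CPM against 6770, 8920 and 5410 CPM, and endothelial markers to 559, 1160 and 1180 CPM against 639, 764 and 283 CPM. T and natural killer cell markers summed to 9.30 to 13.3 CPM in the injured libraries and 14.6 to 22.9 CPM in the controls, and cartilage markers to 66.1 to 101 and 30.4 to 67.8 CPM. By edgeR 2 of 10 endothelial markers were higher (3 without H1, 1 without H3 or C1, and 0 without H2, C2 or C3) and 2 of 10 fibroblast markers were lower (2 without H1, 1 without H3, and 0 without H2 or any control). For T and natural killer cells, smooth muscle and cartilage 0 passed edgeR's test, with 1, 0 and 1 at an unadjusted p under 0.05, and DESeq2 and limma-voom each called 0, 0 and 1. The part of these cell type markers in the levels of the antiviral genes was not tested.

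**Figure D4:**
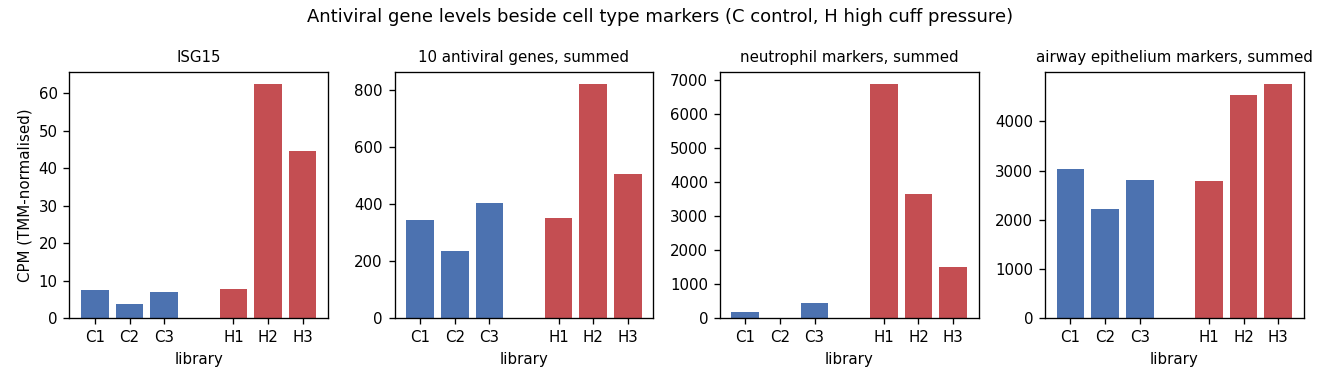
Bars give, for each library (H1 to H3 high cuff pressure, C1 to C3 control), the level in CPM of ISG15 and the summed CPM of the 10 antiviral genes, the neutrophil markers and the airway epithelium markers, each axis starting at 0. The neutrophil sum is highest in H1 at 6880 CPM, while the antiviral sum is highest in H2 at 820 CPM and lies at 350 CPM in H1, inside the control range of 237 to 403 CPM.

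The summed level of the 10 genes was 350, 820 and 505 CPM in H1, H2 and H3 and 345, 237 and 403 CPM in C1, C2 and C3, of which MX1 held most. Without MX1 the sums were 117, 229 and 202 CPM against 102, 65.1 and 123 CPM. On either sum H2 and H3 lay above every control and H1 within the control range.

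By the authors' deposited table, ISG15 was the 1 gene of the 10 with a q-value under 0.05, at 0.00084, where 8.89% of the genes with a q-value passed. OAS3 had a q of 0.085 and RSAD2 one of 0.12 in the authors' deposited table. Outside the 10, the authors' deposited table gives q-values of 0.044 for IRF7, 0.012 for TLR3, 0.048 for IFIH1, 0.028 for WARS, 0.019 for NLRX1 and 0.033 for SAMD9. The authors' deposited enrichment tables hold 15 Gene Ontology terms that name interferon or a virus, with a lowest q of 0.45, and 9 such KEGG terms, with a lowest q of 0.47. In the authors' deposited table of KEGG terms the RIG-I-like receptor pathway held 4 called genes of 58, 2 up, ISG15 among them, and 2 down, with a q of 1.

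The genes whose pattern over the 6 libraries was most like the mean pattern of the 10 were sought by the root mean square difference of centred log2 CPM. The nearest was MUC1, a membrane mucin of the airway surface that is also among the epithelium markers above, at a difference of 0.171, with 67.0, 135 and 123 CPM in H1, H2 and H3 and 73.6, 55.4 and 75.5 CPM in C1, C2 and C3. Next came ANKRD23 at 0.176, LSM2 at 0.198, HSD17B10 at 0.218 and UCHL3 at 0.223. Of the 10 themselves IFIT3 lay nearest to their mean pattern at 0.289 and IFIT2 farthest at 1.324, with ISG15 at 0.940. IFIT2 was thus the least typical of the set by this measure, on 3 counts in H1 and 4 in H2, and ISG15 the next, by its larger range. The mean pattern holds each of the 10 itself. The nearest other genes were picked from all tested genes with a symbol, so their differences cannot be compared with those of the 10.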

How the data were processed

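PolyA RNA of 6 libraries was measured by RNA-seq. Per the submitters' processing notes, HISAT2 2.0.4, StringTie 1.3.3b and edgeR were used, with no role given; no source used here names the genome build, annotation or strand setting, and coordinates are as the deposited table gives them. The authors deposited raw read counts and FPKM per gene, with p-values and q-values of their own comparison, and enrichment tables with the rich factor (a ratio of shares), p-values, q-values and numbers of genes. Of 29587 rows, 13436 carry no symbol; these were tested but not named. The RefSeq gene table for rabbit matched 0 gene identifiers and was not used.

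Samples were grouped by their labels. Counts were fitted on the whole table with edgeR 4.0.16 in R 4.3.3: filterByExpr, TMM factors, robust glmQLFit and glmQLFTest without a block, Benjamini-Hochberg adjustment over the 13724 genes kept, threshold 0.05. Standard errors were derived from each log2 fold change and its F statistic; log2 CPM use a prior count of 2, so folds of low genes are understated. A floor of 3 counts equals 0.193 to 0.353 CPM and covers counting error only. Replicates were checked for repeated libraries and none was found. The fit was tried on simulated counts with set fold changes. These held no outlying library, so they cannot show how the fit handles a library that stands apart.

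The 10 genes, 7 further pathway lists and 9 cell type lists were chosen with earlier results of these data known. The rule named all 10, every ligand and receptor with a row, 3 genes per pathway list with the smallest p, set signal transducers and feedback inhibitors, and the 5 genes nearest in pattern; 3 receptors are given by their range only, and cell type genes by their sums. Alternatives were RLE factors, total counts, DESeq2 1.42.0, limma-voom (limma 3.58.1), other filters, no robust estimation, FPKM with pseudocounts of 1 and 0.1, a replicate block and leaving out each library. Removal of a length trend was added after seeing the data. Some genes that the rule names are not reported here.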

Additional observations from a re-analysis of the deposited data

How the results depend on the processing

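Counts of calls higher and lower at an adjusted p under 0.05 were 503 and 222 over all genes, 0 and 0 of the 10 antiviral genes and 2 and 0 of the other pathway genes. With total counts they were 389 and 1241 over all genes and 0 and 4 of the pathway genes. With DESeq2 they were 1394 and 1163, 2 and 0 of the antiviral genes, and 9 and 5. With log2(FPKM + 1) in limma-trend they were 434 and 1748 over all genes and 0 and 6 of the pathway genes, and with log2(FPKM + 0.1) 403 and 1448, and 0 and 5. Without a filter they were 535 and 251, and 1 and 0. Limma-voom gave 520 and 303 over all genes. Leaving out 1 library at a time gave 0 to 1362 higher and 0 to 1261 lower over all genes, 0 to 4 and 0 to 0 of the antiviral genes, and 0 to 9 and 0 to 6 of the pathway genes.

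With the replicate block the counts were 198 and 46 over all genes, 0 and 0 of the antiviral genes and 0 and 0 of the pathway genes. Same-numbered libraries deviated from their group means with correlations of -0.28, -0.20 and -0.23 over 13724 genes, and no library correlated best with its own number. Deviations from a group mean depend on each other within a group, so these correlations cannot decide whether same-numbered samples belong together.

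Direction turned for OAS1 with limma-voom (-0.02), log2(FPKM + 1) (-0.25) and log2(FPKM + 0.1) (-0.43). It turned for IFNAR1 with total counts (-0.05) and both FPKM scales (-0.07 and -0.08). IRF1 turned with total counts (-0.31), log2(FPKM + 1) (-0.31) and log2(FPKM + 0.1) (-0.31), without H1 (-0.06) and without C2 (-0.02), within -0.06 to 0.20 over single libraries left out. The cause was not tested. The remaining 9 antiviral genes kept their direction under every alternative run. The 5 interferon ligands with a row did not reach the count filter, and IFIT2 rested on 3 to 48 counts per library.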
